A study of Mus musculus with 6 samples.

Results

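The complement system of unstimulated bone marrow-derived macrophages (BMDMs) was followed through 9 genes picked by symbol from the 40481 genes of the count table. These were the C1q chains *C1qa*, *C1qb* and *C1qc*, the components *C3*, *C4b*, *Cfb* and *Cfp*, and the receptors *C3ar1* and *C5ar1*. All 9 passed the filter on low counts and were among the 14778 genes tested. RNA was sequenced from 3 wild-type samples and 3 *Scd2-m/-m* samples, with 1 poly(A)-selected library each. *Scd2-m/-m* mice carry floxed alleles of *Scd2*, which encodes a fatty acid desaturase, and a Cre transgene driven by the lysozyme M promoter, which is active in monocytes, macrophages and neutrophils. Marrow of both genotypes was differentiated in medium conditioned by CMG cells, a source of macrophage colony-stimulating factor, and the cells received no stimulus. Adult mice of both sexes, a few months old, were used in the study, and the sex and age behind each library, and whether wild-type mice carried Cre or floxed alleles, were not stated. Nothing states that the libraries of a genotype came from separate animals, so p-values measure the spread between these samples, which may be technical.

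Complement is a cascade of plasma and cell surface proteins that tags microbes and dying cells for uptake. In the classical pathway C1q, built from A, B and C chains, binds a target, and its partner proteases C1r and C1s then cleave C4 and C2. The alternative pathway starts from C3 and factor B and is stabilized by properdin, the product of *Cfp*. Both routes cut C3, and the small fragments C3a and C5a act on the receptors C3AR1 and C5AR1. The liver makes most plasma complement, whereas C1q and properdin come largely from macrophages and other myeloid cells.

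Counts on genes ranged from 46285176 to 57629638 per library, and the totals of the genotypes overlapped. Among counts from 2 to 11, 75.4% were even, so 1 count may be 1 end of a read pair, and counting precision may then be lower than the totals imply. The total of each library was also above the average number of reads per sample that the paper gives. Levels are CPM, a count scaled to a common library total, after trimmed mean of M values (TMM) scaling, and the genotypes were compared with edgeR's quasi-likelihood test, adjusted over all genes tested (FDR). *Scd2* itself had 62.7 to 77.8 CPM in wild-type and 38.0 to 59.5 CPM in *Scd2-m/-m* libraries, a mean of 66.2% of wild type. The log2 fold change was −0.59 (standard error, SE, 0.19, FDR = 0.10, edgeR), which did not pass the test. Without *Scd2-m/-m* replicate 1 it was −0.83 (FDR = 8.87e-05, edgeR). Leaving out any other library gave an FDR from 0.137 to 0.277 (edgeR). Among 8 macrophage markers, *Adgre1*, *Csf1r*, *Lyz2* and *Mertk* fell, *Cd68* rose, and *Itgam*, *Fcgr1* and *Cd14* did not pass the test. *Lyz2*, the gene that holds the lysozyme M promoter, went from 22751 to 9029 CPM and made most of the drop in the summed level of the list, from 37461 to 38369 CPM in wild-type to 21448 to 21968 CPM in *Scd2-m/-m* libraries. The Cre transgene uses the promoter of *Lyz2*, and its part in the fall of *Lyz2* was not tested. The summed level is therefore not a measure of macrophage number here. Summed levels of 9 neutrophil markers were 10.9 to 11.7 CPM in wild-type and 25.6 to 33.3 CPM in *Scd2-m/-m* libraries, with 5 of the 7 tested called higher. Osteoclast markers summed to 35.2 to 47.3 CPM and 64.8 to 72.7 CPM, with 2 of the 3 tested called higher. Progenitor markers summed to 0.925 to 1.65 CPM and 2.35 to 2.83 CPM, with 2 of the 4 tested called higher. Of all genes tested 9.65% were called higher. Of the 3 B cell and the 5 dendritic markers tested 1 each was called higher, and of the 3 endothelial markers 1 was called lower. None was called among mast cell and basophil, erythroid or T and NK cell markers. Of these only 1, 1 and 0 of 4 each had enough counts to be tested. Sums of the dendritic markers were 1.15 to 1.59 CPM in wild-type libraries against 1.65 to 2.86 CPM, and those of mast cell and basophil markers 0.217 to 0.423 CPM against 0.448 to 0.929 CPM, so neither overlapped. The 7 markers of fibroblasts and stromal cells summed to at most 2.28 CPM in any library, and none of the 2 tested was called. The part of these markers in the results for complement genes was not tested, and in bulk RNA fewer cells of a type and less RNA per cell cannot be told apart.

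Of the 9 genes, 5 fell and 1 rose in *Scd2-m/-m* BMDMs at an FDR below 0.05, against 7.84% of all genes tested called lower and 9.65% called higher. The same numbers were called with all counts halved. The median log2 fold change of the 9 was −0.26, against 0.0039 over all genes tested. The 3 C1q chains, *C3* and *Cfp* were lower, *C4b* was higher, and *Cfb*, *C3ar1* and *C5ar1* did not pass the test. In 7 of the 9 the libraries of the genotypes did not overlap, as in 34.9% of all genes tested. Values of single libraries are given in the order of replicates 1, 2 and 3. No gene of the 9 changed by a log2 fold change above 2 in size, the second threshold of the study, which 0.663% of all genes passed together with the FDR.

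Levels were compared between genes per length, as RPKM, CPM divided by the annotated exon length in kilobases. In wild-type BMDMs *C1qb* was the most abundant of the 9 at 3173 ± 125 RPKM (SD, n = 3) and ranked 11 among all genes tested. *C1qc* followed at 1415 ± 141 RPKM and *C1qa* at 931 ± 70.9 RPKM (SD, n = 3 each). All 3 chains were thus within the top 0.305% of genes tested. Together they took 0.657% to 0.758% of all counts in wild-type and 0.587% to 0.597% in *Scd2-m/-m* libraries.

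*C3ar1* at 469 ± 14.3 RPKM, *Cfp* at 429 ± 38.1 RPKM and *C5ar1* at 392 ± 32.2 RPKM came next (SD, n = 3 each). Their neighbours in this order overlapped between wild-type libraries, so *C3ar1* and *Cfp*, and *Cfp* and *C5ar1*, were not separated by their spread. *C3* lay below them at 115 ± 10.5 RPKM. *C4b*, at 0.264 ± 0.0486 RPKM, and *Cfb*, at 0.131 ± 0.0444 RPKM, were lower than *C3* by more than 2 orders of magnitude. The order of the 9 means was the same in *Scd2-m/-m* BMDMs.

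**Figure D1:**
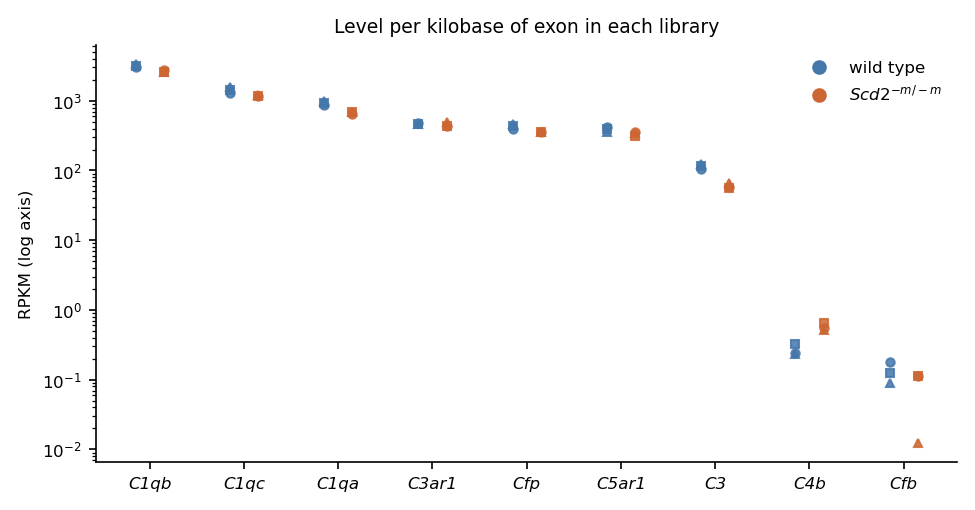
Level of each of the 9 genes in each library, in RPKM on a log axis, ordered by the wild-type mean, with wild-type libraries in blue and *Scd2-m/-m* libraries in orange. The C1q chains stand at the top and *C4b* and *Cfb* stand below 1 RPKM.

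The C1q genes sit side by side on chromosome 4 (build GRCm38, minus strand), within 18.7 kb. *C1qb* (ENSMUSG00000036905) lies from 136880129 to 136886187, *C1qc* (ENSMUSG00000036896) from 136889804 to 136893065 and *C1qa* (ENSMUSG00000036887) from 136895917 to 136898803. *C4b* (ENSMUSG00000073418, 34728380 to 34743882) and *Cfb* (ENSMUSG00000090231, 34856374 to 34862518) share a stretch of 134 kb on chromosome 17, the class III part of the major histocompatibility complex. *C3* (ENSMUSG00000024164) is farther along chromosome 17, from 57203970 to 57228136. *Cfp* (ENSMUSG00000001128) is on the X chromosome from 20925454 to 20931555, *C3ar1* (ENSMUSG00000040552) on chromosome 6 from 122847138 to 122856161, and *C5ar1* (ENSMUSG00000049130) on chromosome 7 from 16246743 to 16259540. No other annotated gene with a count overlapped any of the 9.

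RefSeq promoter windows of this build (GRCm38.p6) were found for 6 of the 9 genes. The 250 bases before the RefSeq start are shown for 3 genes that fell and whose window holds no annotated exon, since they let the upstream sequence of a C1q chain be read beside that of *C3* and of properdin. All lie on the minus strand and are written 5′ to 3′, with matches to any of 5 searched motifs in capitals. The windows are chr4:136886201-136886450 for *C1qb*, chr17:57228137-57228386 for *C3* and chrX:20931556-20931805 for *Cfp*.
C1qb: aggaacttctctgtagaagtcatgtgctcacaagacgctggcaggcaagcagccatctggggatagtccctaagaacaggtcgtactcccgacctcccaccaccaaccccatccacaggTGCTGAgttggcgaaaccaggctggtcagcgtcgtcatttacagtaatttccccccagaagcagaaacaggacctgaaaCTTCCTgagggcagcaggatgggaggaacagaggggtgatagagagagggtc
C3: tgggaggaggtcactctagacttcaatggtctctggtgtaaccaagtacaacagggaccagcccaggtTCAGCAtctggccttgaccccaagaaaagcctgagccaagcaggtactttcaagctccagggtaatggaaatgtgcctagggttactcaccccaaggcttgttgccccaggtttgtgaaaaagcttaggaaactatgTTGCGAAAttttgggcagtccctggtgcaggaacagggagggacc
Cfp: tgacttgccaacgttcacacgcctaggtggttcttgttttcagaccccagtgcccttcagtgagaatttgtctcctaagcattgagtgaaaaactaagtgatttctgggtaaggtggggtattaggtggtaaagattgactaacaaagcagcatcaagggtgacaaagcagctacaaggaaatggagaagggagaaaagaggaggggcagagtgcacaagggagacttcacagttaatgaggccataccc

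The motifs were searched on both strands. TGCTGA, a part of the Maf recognition element, was found in 4 of the 6 windows (*C1qb*, *C3*, *C3ar1* and *C5ar1*) and in 16.1% of all 32851 promoter windows of the same length. AGGAAG, the core bound by PU.1, was found in *C1qb*, *C1qc* and *C5ar1*, against 29.5% of all windows. TTGCNNAA, a C/EBP element, was found in *C3* and in 9.56% of all windows. GAAANNGAA, the core of an interferon response element, was found in *C5ar1*, where it overlaps AGGAAG, and in 7.13% of all windows. GGGANNTTC, a part of an NF-kB element, was in none of the 6 windows and in 3.23% of all. In *C1qb* the Maf match runs from −131 to −126 and the PU.1 match from −52 to −47, counted from the start site. In *C3* the Maf match runs from −182 to −177 and the C/EBP match from −45 to −38. The window of *Cfp* holds no match to the 5 motifs. A match is a string of letters and not a shown binding site.

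*C1qa*, the A chain, stood at 896, 966 and 1043 CPM in wild-type libraries, against 661, 714 and 728 CPM in *Scd2-m/-m* libraries. All *Scd2-m/-m* libraries were below all wild-type libraries. The mean fell from 968 ± 73.8 to 701 ± 35.4 CPM (SD, n = 3 each), to 72.4% of wild type, and the log2 fold change was −0.47 (SE 0.071, FDR = 0.000495, edgeR). The call held in every alternative setting run, with log2 fold changes from −0.52 to −0.41.

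*C1qb*, the B chain, stood at 3358, 3391 and 3608 CPM in wild-type libraries, against 2982, 2773 and 2846 CPM in *Scd2-m/-m* libraries. The groups did not overlap, and the means were 3453 ± 136 and 2867 ± 106 CPM (SD, n = 3 each). The log2 fold change was −0.27 (SE 0.067, FDR = 0.0132, edgeR), or 83.0% of wild type. Without wild-type replicate 2 the FDR was 0.0517 and without *Scd2-m/-m* replicate 2 it was 0.0973 (edgeR), so either library decides whether this gene passes.

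*C1qc*, the C chain, stood at 2456, 2738 and 3001 CPM in wild-type libraries, against 2286, 2283 and 2308 CPM in *Scd2-m/-m* libraries. The wild-type libraries were far more spread than the *Scd2-m/-m* libraries, with no overlap. The log2 fold change was −0.25 (SE 0.076, FDR = 0.0345, edgeR), from 2732 ± 273 to 2292 ± 13.6 CPM (SD, n = 3 each). This call was the least stable of the 5 falls. It was kept without wild-type replicate 1 (FDR = 0.00479, edgeR) and lost when any other library was left out, with an FDR between 0.0676 and 0.137 (edgeR). The log2 fold change was −0.18 without wild-type replicate 3 and from −0.26 to −0.25 in the other fits that lost the call.

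**Figure D2:**
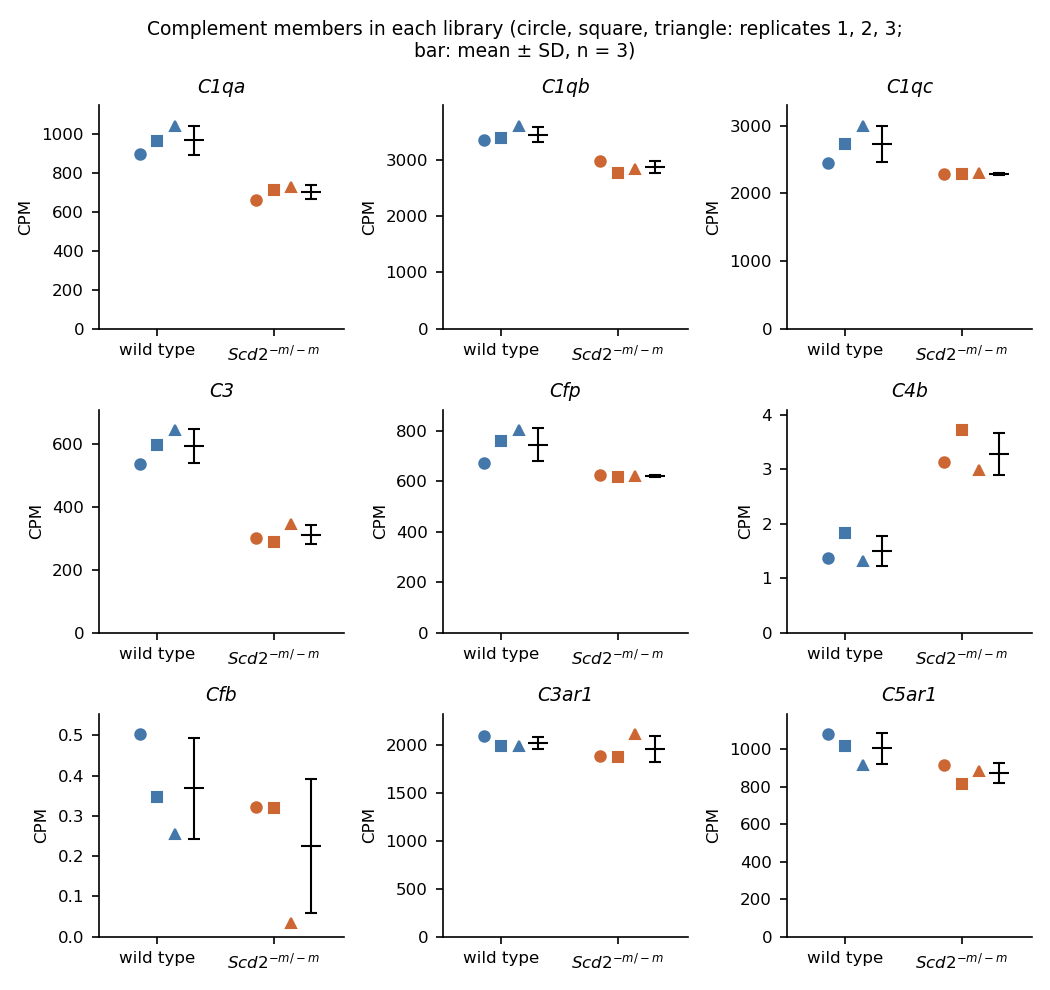
Level of each of the 9 genes in CPM, on axes that start at 0, with 1 point per library (circle, square and triangle for replicates 1, 2 and 3) and the mean ± SD of 3 libraries beside them. *C1qa*, *C1qb*, *C1qc*, *C3*, *Cfp* and *C5ar1* are lower and *C4b* is higher in all *Scd2-m/-m* libraries, and *Cfb* and *C3ar1* overlap between genotypes.

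The chains were also compared with each other within a library. Per length, the ratio of *C1qa* to *C1qb* was 0.279, 0.298 and 0.302 in wild-type and 0.232, 0.269 and 0.268 in *Scd2-m/-m* libraries. The mean ratios were 0.293 ± 0.0125 and 0.256 ± 0.0212 (SD, n = 3 each), with no overlap. The ratio of *C1qc* to *C1qb* was 0.445 ± 0.0296 and 0.451 ± 0.0169 (SD, n = 3 each) and overlapped. The A chain therefore made up 16.5% to 17.1% of the summed C1q level in wild-type and 13.9% to 15.5% in *Scd2-m/-m* libraries. The ratios were chosen after the values were seen and were not tested. Their size, and the percentages of the sum, depend on the exon length taken for each chain. The fold change of a ratio between genotypes does not.

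**Figure D3:**
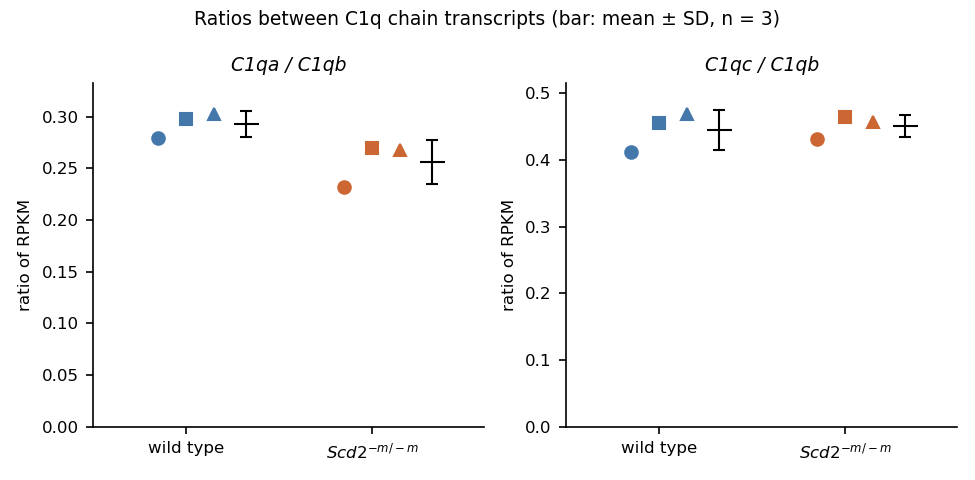
Ratio of *C1qa* to *C1qb* (left) and of *C1qc* to *C1qb* (right), each in RPKM, in the 6 libraries, with the mean ± SD of 3 libraries. The 3 *Scd2-m/-m* values lie below the 3 wild-type values on the left and among them on the right.

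*C3*, the central component that all pathways cleave, had the largest fall among the 9. It stood at 537, 597 and 645 CPM in wild-type libraries, against 302, 288 and 345 CPM in *Scd2-m/-m* libraries, with counts of at least 14475 in each library. The means were 593 ± 53.9 and 312 ± 30.0 CPM (SD, n = 3 each), a drop to 52.6% of wild type. The log2 fold change was −0.93 (SE 0.082, 95% interval −1.10 to −0.75, FDR = 4.75e-06, edgeR). It stayed between −1.01 and −0.86 over the alternative settings and was called in each.

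*Cfp*, which encodes properdin, stood at 674, 758 and 804 CPM in wild-type libraries, against 624, 616 and 621 CPM in *Scd2-m/-m* libraries. The *Scd2-m/-m* libraries lay close together, and all were below the lowest wild-type library. The log2 fold change was −0.26 (SE 0.070, FDR = 0.0186, edgeR), from 745 ± 66.1 to 620 ± 3.99 CPM (SD, n = 3 each). The call was lost without wild-type replicate 2 (FDR = 0.0921), without wild-type replicate 3 (FDR = 0.0687) and without *Scd2-m/-m* replicate 2 (FDR = 0.0951, edgeR in each). The log2 fold changes in those fits were −0.25, −0.21 and −0.26.

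*C4b*, which encodes the component C4 of the classical and lectin pathways, rose, from a low level. It stood at 1.37, 1.82 and 1.32 CPM in wild-type libraries, against 3.14, 3.72 and 2.98 CPM in *Scd2-m/-m* libraries, on 67 to 84 and 173 to 187 counts. The groups did not overlap. The mean rose from 1.5 ± 0.277 to 3.28 ± 0.392 CPM (SD, n = 3 each), log2 fold change 1.12 (SE 0.19, 95% interval 0.72 to 1.53, FDR = 0.000884, edgeR), and the call held in every setting run. The paralog *C4a*, whose reads the counting could have shared with *C4b*, had 0.620 ± 0.296 and 0.840 ± 0.135 CPM (SD, n = 3 each, FDR = 0.441, edgeR). The sum of both genes was 1.67 to 2.71 CPM in wild-type and 3.94 to 4.42 CPM in *Scd2-m/-m* libraries, so it did not overlap either. Neutrophil markers were higher in the same libraries, as given above, and their part in the rise was not tested.

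*Cfb*, the protease subunit of the alternative convertase, was close to the limit of detection. It had 25, 16 and 13 counts in wild-type and 18, 16 and 2 counts in *Scd2-m/-m* replicates 1, 2 and 3, or 0.256 to 0.504 and 0.0344 to 0.323 CPM. The groups overlapped, and the log2 fold change of −0.73 had a 95% interval from −1.97 to 0.52 (FDR = 0.440, edgeR). The interval holds both no change and a fall larger than that of *C3*, and without *Scd2-m/-m* replicate 3 the value was −0.20.

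Neither receptor of the small fragments passed the test. *C3ar1*, the receptor of C3a, stood at 2092, 1988 and 1982 CPM in wild-type libraries, against 1886, 1869 and 2113 CPM in *Scd2-m/-m* libraries. *Scd2-m/-m* replicate 3 was above all wild-type libraries and the other two were below. The log2 fold change was −0.047 with a 95% interval from −0.20 to 0.10 (FDR = 0.700, edgeR). Its interval did not reach that of *C3*, and the ratio of *C3ar1* to *C3* per length was 3.67 to 4.65 in wild-type and 7.31 to 7.75 in *Scd2-m/-m* libraries.

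*C5ar1*, the main receptor of C5a, stood at 1083, 1019 and 918.74 CPM in wild-type libraries, against 918.72, 815 and 886 CPM in *Scd2-m/-m* libraries. The groups did not overlap, but wild-type replicate 3 and *Scd2-m/-m* replicate 1 were level at the first decimal. The log2 fold change was −0.21 (SE 0.075, 95% interval −0.37 to −0.045, FDR = 0.0766, edgeR), which missed the threshold. Leaving out wild-type replicate 3 gave −0.27 (FDR = 0.0260, edgeR), DESeq2 gave −0.21 (FDR = 0.0357), limma-voom with quality weights −0.26 (FDR = 0.00183), and edgeR without a filter on low counts −0.20 (FDR = 0.0211). With the replicate number as a block edgeR gave −0.20 (FDR = 0.0346).

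**Figure D4:**
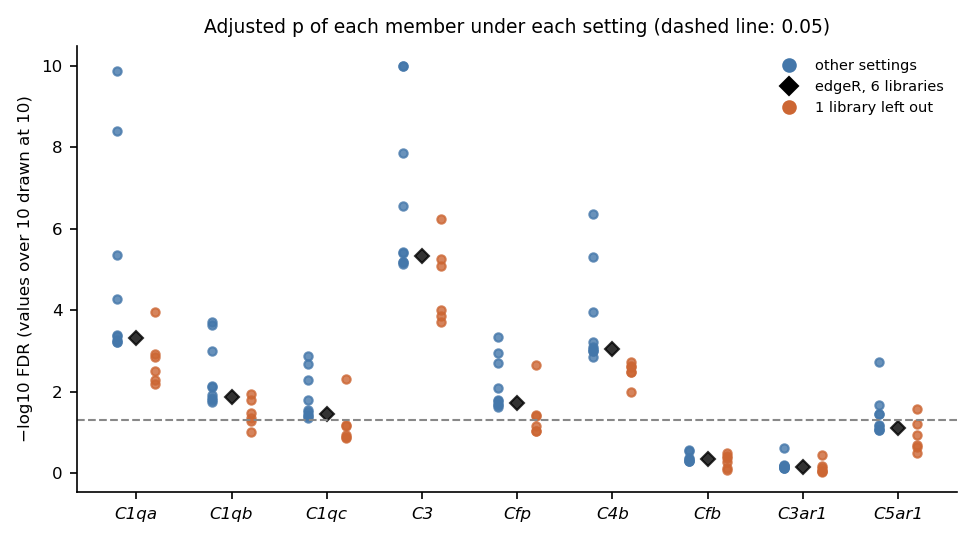
Adjusted p of each of the 9 genes as −log10 FDR for edgeR on all 6 libraries (diamonds), for other settings (blue) and with 1 library left out (orange), with values over 10 drawn at 10 and 0.05 dashed. *C1qa*, *C3* and *C4b* stay above the dashed line throughout, and *C1qb*, *C1qc*, *Cfp* and *C5ar1* have points on either side.

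The other genes of the system were taken from a list of 49, of which 22 passed the filter on low counts. Of these 22, 5 rose, 1 fell and 16 did not pass the test, with a median log2 fold change of 0.16. For comparison, 17.5% of all genes tested were called in either direction. The 5 were *C1ra*, *Fcna*, *Cd55*, *Vsig4* and *Calr*, and the 1 was *C5ar2*.

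Of the 14 genes that start the classical and lectin pathways, 5 were tested and 2 rose. *C1ra*, which encodes the protease C1r that pairs with C1q, went from 8.18 ± 0.302 to 13.3 ± 0.237 CPM (SD, n = 3 each), log2 fold change 0.70 (SE 0.088, FDR = 0.000101, edgeR), opposite in direction to the C1q chains. *Fcna*, which encodes ficolin A, a lectin of macrophages and liver, went from 15.4 ± 0.425 to 23.0 ± 2.36 CPM, log2 fold change 0.58 (SE 0.085, FDR = 0.000339, edgeR). *C1rb*, *C2* and *C4a* were below 1 CPM in every library and did not pass, and reads of the paralogs *C1ra* and *C1rb* could be shared. *C1s1*, the protease that works with C1r, had 2 to 14 counts per library and was not tested. The classical pathway was thus unevenly represented, with the C1q chains among the most abundant transcripts and *C1s1* and *C2*, the latter encoding the protease subunit of its convertase, near the limit of detection.

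Of the 7 terminal genes 1 was tested, *C8g*, at 1.57 ± 0.0664 and 1.54 ± 0.342 CPM (SD, n = 3 each, FDR = 0.965, edgeR). *Hc*, which encodes C5, the source of the ligand of *C5ar1*, had 0 to 3 counts per library. *Cfd*, the factor D that activates factor B, had 0 to 5 counts and was not tested. In all, 27 of the 49 genes were not tested, none of them above 26 counts in a library. Of these, 5 genes, among them *Mbl1*, *C6*, *C4bp* and *Cpn2*, had 0 counts in all 6 libraries, which allows up to 0.0651 CPM in a library (3 counts, counting error only, and more if 1 count is 1 end of a read pair).

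Of the 10 soluble regulators 2 were tested and neither passed. *Cfi*, the factor I that inactivates C3b, had at most 2 counts in a library and was not tested. Of 7 membrane regulators 5 were tested and 1 rose. *Cd55*, decay-accelerating factor, which breaks up convertases on host cells, went from 1.67 ± 0.418 to 3.31 ± 0.657 CPM, log2 fold change 0.99 (SE 0.21, FDR = 0.00494, edgeR). *Cd59a*, which blocks the terminal pore, had 11.8 ± 1.38 and 14.2 ± 0.334 CPM (FDR = 0.0755), and its paralog *Cd59b* 0.267 ± 0.0416 and 0.544 ± 0.0733 CPM (FDR = 0.0695, edgeR). In both all *Scd2-m/-m* libraries were above all wild-type libraries, without passing the test. Of all genes tested, called or not, 17.9% lay apart in this direction. Among them were *C1rb* and the receptor gene *Cd93*, which did not pass either (FDR = 0.106 each, edgeR).

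Of 10 receptor genes 9 were tested, of which 2 rose and 1 fell. *Vsig4*, a receptor of C3b and iC3b on tissue macrophages, stood at 0.463, 0.889 and 0.748 CPM in wild-type libraries, against 2.33, 3.04 and 2.05 CPM in *Scd2-m/-m* libraries. Its log2 fold change was 1.82 (SE 0.26, FDR = 0.000273, edgeR), the largest rise among the complement genes tested here, on 23 to 41 and 119 to 153 counts. *C5ar2*, the second receptor of C5a, which lies next to *C5ar1* on chromosome 7, fell from 24.9 ± 0.581 to 17.2 ± 1.94 CPM, log2 fold change −0.53 (SE 0.084, FDR = 0.000655, edgeR). *Calr*, calreticulin, a chaperone that also binds C1q at the cell surface, rose from 428 ± 6.03 to 499.7 ± 26.1 CPM, log2 fold change 0.22 (SE 0.061, FDR = 0.0222, edgeR). The call of *Calr* was lost without wild-type replicate 2 (FDR = 0.117), *Scd2-m/-m* replicate 1 (FDR = 0.0662) or *Scd2-m/-m* replicate 2 (FDR = 0.0786, edgeR in each). Its log2 fold changes in those fits were 0.21, 0.18 and 0.24.

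The integrin subunits of complement receptor 3 were abundant in both genotypes and did not pass the test. *Itgam* had 1267 ± 63.7 and 1185 ± 62.8 CPM (SD, n = 3 each); the log2 fold change was −0.097 with a 95% interval from −0.24 to 0.048 (FDR = 0.368, edgeR). *Itgb2* had 734 ± 67.8 and 676 ± 29.8 CPM (FDR = 0.303, edgeR). *Itgax*, the subunit of complement receptor 4, had 8.07 ± 1.65 and 6.29 ± 1.42 CPM (FDR = 0.190, edgeR).

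**Figure D5:**
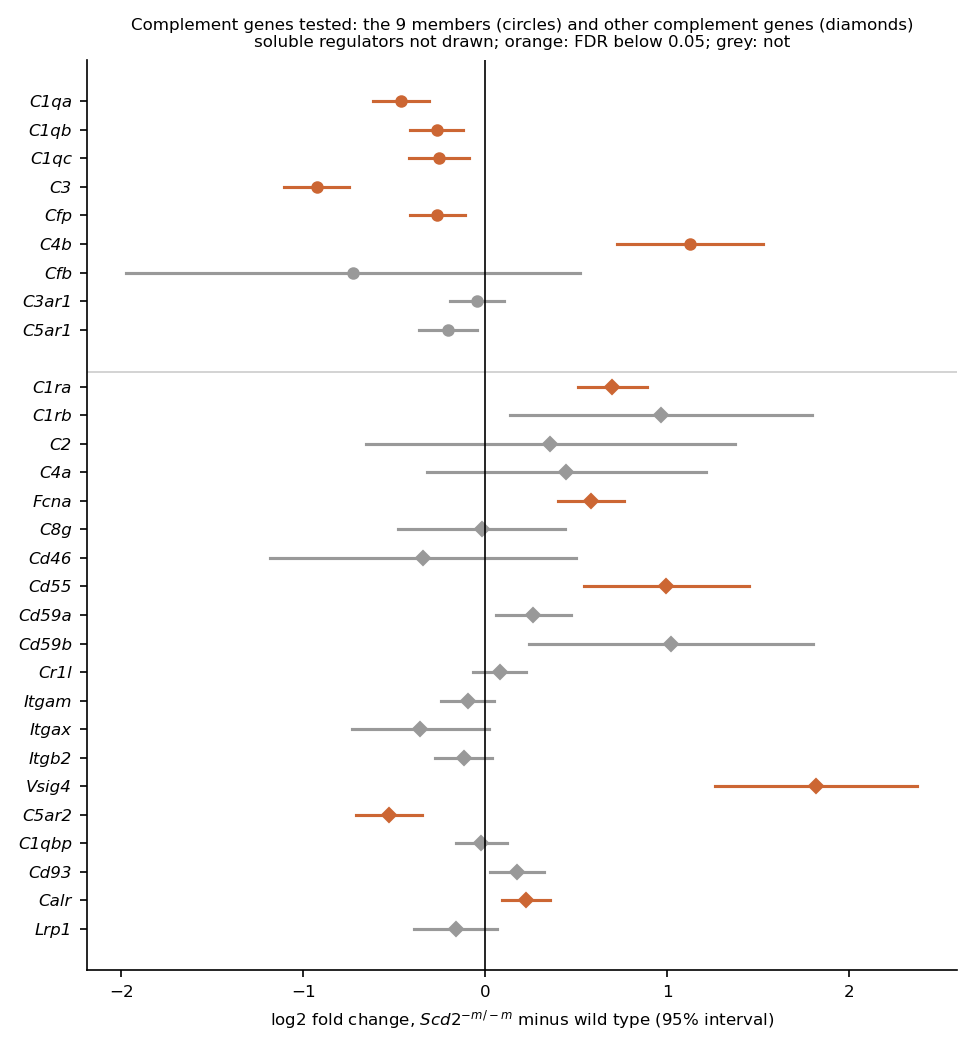
Log2 fold change, *Scd2-m/-m* minus wild type, with its 95% interval, for the 9 genes (circles, top) and the other complement genes tested apart from soluble regulators (diamonds, below), in orange where the FDR was below 0.05. *C3* and the C1q chains lie left of 0, and *C4b*, *C1ra*, *Fcna*, *Cd55* and *Vsig4* lie right of it.

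The profile of *C1qa* over the 6 libraries was set beside that of every other gene tested, as the root mean square difference of log2 levels centred on each gene's own mean. The nearest were *Nacc2* (0.0316), *Csad*, a taurine synthesis enzyme (0.0455), *Lpin2*, a phosphatidate phosphatase (0.0522), *Sema4a* (0.0522) and *Slamf6* (0.0528). *Cfp*, *C1qc* and *C1qb* ranked 233, 259 and 360 of 14777, so the other chains were not the nearest profiles to the A chain. The gene nearest to *C1qc* was *Cfp*, at 0.0168, and *C1qb* ranked 116 from it. The points are 6 libraries in 2 genotypes, so any gene that differs between genotypes by a like amount comes out near.

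Genes beside the 6 called members were read from the same test. Within 50 kb, 9 genes other than the 9 members were tested and 1 was called, against 17.5% of all genes tested called in either direction. It was *Syn1*, near *Cfp*, which fell from 59.0 to 49.6 CPM (log2 fold change −0.25, FDR = 0.0303, edgeR). *Gpr108*, the nearest tested gene upstream of *C3*, had a log2 fold change of −0.089 (FDR = 0.426), and *Elk1*, next to *Cfp*, −0.13 (FDR = 0.258, edgeR). The only tested gene beside the C1q cluster was *Ephb2*, at 0.835 and 0.531 CPM (FDR = 0.251, edgeR).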

How the data were processed

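Poly(A)-selected RNA of BMDMs from 3 wild-type and 3 *Scd2-m/-m* samples was analysed. The authors aligned reads with STAR to the Ensembl release 76 primary assembly (GRCm38). Raw counts of each gene were deposited as whole numbers. The tool that counted reads and its strand setting were not given in the sources used here. A second deposited table, the authors' own edgeR and limma comparison, holds fold changes, p-values and log2 CPM and was not used. Of 40757 entries, 276 repeats were removed, and 99.7% of genes matched GENCODE M21, which gave coordinates and exon lengths.

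Counts were filtered with filterByExpr, scaled by TMM and compared with edgeR 4.0.16 (glmQLFit with robust estimation, glmQLFTest) in R 4.3.3, on genotype alone, with Benjamini-Hochberg adjustment over 14778 genes. Standard errors are the log2 fold change over the square root of F. The script was tested on simulated data. Alternatives were other normalizations and filters, DESeq2 1.42.0, limma-voom (limma 3.58.1), also with quality weights, halved counts, a replicate block and leaving out each library. Replicates differed by more than sampling noise (chi-square 10.5 to 31.6 per gene).

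The members, the list of 49 other complement genes, the markers and the motifs were chosen with earlier results of these data known. Named were all members, each other complement gene called, the most abundant tested gene of each role except soluble regulators, whose tested genes are not reported here, the 5 genes nearest to *C1qa* and called neighbours. Other genes, among them *C1s1*, *Hc*, *Cfd*, *Cfi*, *Itgb2*, *Itgax*, *Cd59b*, *Gpr108*, *Elk1* and *Ephb2*, were added after their values were seen. Protein sequences were not analysed here.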

Additional observations from a re-analysis of the deposited data

How the results depend on the processing

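*C1qa*, *C3* and *C4b* kept their direction and call in all 15 alternatives, and none of the 9 genes changed direction in any alternative that could test it. With 10 counts required in every library, or with halved counts, *Cfb* was not tested. The number of members called lower was 5, and 2 to 5 with a library left out, 2 without wild-type replicate 2 and 2 without *Scd2-m/-m* replicate 2; over all genes those settings called 1490 and 1440 instead of 2585, and the cause was not tested. Limma-voom with quality weights called 8 other complement genes higher and 2 lower (4585 of all genes). No filter on low counts gave 2 lower, and leaving out a library gave 1 to 2 lower (2 without *Scd2-m/-m* replicate 1) and 4 to 7 higher. *Scd2* had −0.82 with quality weights, and −0.83 to −0.48 with a library left out.

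Deviations of same-numbered libraries of the genotypes had correlations of 0.053, −0.0196 and 0.0398, so no pairing by number was seen. This does not exclude that such libraries were prepared together, which the labels do not state. With the replicate block 2974 of all genes were called, with 6 members lower (*C5ar1* added, −0.20), 1 higher, and 6 other complement genes higher and 1 lower.

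A window of 100 kb held 24 tested neighbours, of which 4 were called, all lower. Of these, *Syn1* lies near *Cfp* and *Vav1* (log2 fold change −0.19, FDR = 0.0277, edgeR) near *C3*, which both fell. *Prrt1* (−0.60, FDR = 0.0160) and *Atf6b* (−0.37, FDR = 0.00215, edgeR in each) lie near *C4b*, which rose. Of all genes tested 7.84% were called lower and 17.5% in either direction. With *C1qc* as anchor the nearest other chain ranked 116. With the longest transcript as its length *C1qc* had 2271 RPKM. Below 1 CPM, depth limits what can be told for *Cfb*, *C2*, *C4a* and *C1rb*.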

Other observations

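The libraries of one genotype differed from each other in a like way in several members. Wild-type replicate 1 had the lowest and wild-type replicate 3 the highest of the 3 wild-type values for *C1qa*, *C1qb*, *C1qc*, *C3* and *Cfp*, the 5 genes that fell, and the reverse held for *C3ar1*, *C5ar1* and *Cfb*, whereas *C4b* followed neither order. Among macrophage markers, *Adgre1* (2805, 3418 and 3735 CPM in replicates 1, 2 and 3), *Lyz2* and *Mertk* had the same order as the 5 genes, *Csf1r*, *Cd68*, *Itgam* and *Cd14* (1292, 998 and 891 CPM) had the order of *C5ar1*, and *Fcgr1* had neither. The labels name no batch, and these orders were noticed after the values were seen.

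*Scd2-m/-m* replicates 1, 2 and 3 differed in *Scd2*, at 59.5, 38.0 and 39.8 CPM. Without replicate 1, the log2 fold changes of the members were −0.43 for *C1qa*, −0.30 for *C1qb*, −0.25 for *C1qc*, −0.91 for *C3*, −0.27 for *Cfp*, 1.15 for *C4b*, −1.10 for *Cfb*, −0.022 for *C3ar1* and −0.24 for *C5ar1*. In that setting *C1qc* lost its call (FDR = 0.0694, edgeR).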
